A study of Homo sapiens with 6 samples.

Results

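Keratins are the intermediate filament proteins of epithelial cells. The keratin family was read here in EJ/T24 cells, a bladder cancer line established from an invasive human tumor, after transfection with FOXA1. Members were the genes whose probesets carry a single symbol made of KRT and a number, with an optional letter A, B or C, so that keratin associated proteins, pseudogenes and antisense transcripts were left out. There were 44 such genes, read by 56 probesets, among 19775 genes and 54613 probesets tested. A probeset is a group of short oligonucleotides that reads 1 transcript region, and each gene was read by its brightest probeset over all arrays. Of the 44 genes, 24 are type I and 20 type II keratins. KRT6A, KRT6B, KRT6C, KRT17, KRT34, KRT81, KRT82 and KRT86 had no probeset under this rule and were not analysed here. RNA was read on 6 Affymetrix HG-U133 Plus arrays. On 3 of them it came from FOXA1 transfected cells and on 3 from control cells given empty pUC19 by the labels, while the methods name a pcDNA3 vector for FOXA1 and an empty vector. Both groups are the same line, grown in DMEM with serum and transfected by lipofection (with another Lipofectamine reagent in the labels than in the methods), and no time after transfection is given in the sources used here. The comparison addressed which transcripts differ once FOXA1, which these cells express at a low level, is added. The methods describe experiments done in triplicate without tying each array to a dish of its own, so a p-value here reflects the spread among these arrays alone, and that spread may be technical.

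A keratin filament is built from pairs of 1 acidic type I and 1 basic or neutral type II chain, and each epithelium makes its own pairs. Simple and glandular epithelia make KRT8 and KRT18 with KRT7, KRT19 or KRT20, the basal layer of stratified epithelia makes KRT5 and KRT14, and cornifying epidermis makes KRT1 and KRT10. In normal urothelium, KRT5 marks basal cells, KRT13 intermediate cells and KRT20 the umbrella cells at the surface. In bladder cancer KRT20 is a marker of luminal tumors, which also express FOXA1, while KRT5 and KRT14 mark basal and squamous ones. Type I genes lie together on chromosome 17 and type II genes on chromosome 12. KRT18 is the exception, a type I gene beside KRT8 on chromosome 12, and accordingly 21 of the measured genes lay on chromosome 12 and 23 on chromosome 17.

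FOXA1 itself had signals of 38.9, 34.8 and 31.9 in the FOXA1 transfected arrays and 21.8, 24.4 and 21.0 in the control arrays at the brighter of its 2 probesets (log2 difference 0.65, SE 0.23, adjusted p = 0.307 from limma), without overlap of the groups. At the dimmer probeset the log2 difference was -0.54 (SE 0.64). Each difference is FOXA1 transfected minus control by the labels. The study's own table of changed genes runs the other way, since each of its 50 probesets, no keratin among them, has the opposite sign there, so the direction of every difference here rests on the labels. Signals are MAS5 values on a linear scale. The signal below which the lowest 20% of all values lie was 3.5, and the median probeset had a mean signal of 13.5, both used here to show how far a keratin stood above the dim end of the array. Signals of different probesets are not amounts of RNA. Percentiles and the median probeset place a probeset among all probesets by signal, and do not rank amounts of transcript. Ratios or sums over probesets are given only to compare the groups. RNA quality was read through ACTB, whose 3' probeset over its 5' probeset gave 2.11, 2.52 and 2.47 in the FOXA1 transfected arrays and 1.73, 1.92 and 1.54 in the control arrays. The groups did not overlap in this ratio, while they did in that of GAPDH (0.898 to 0.941 against 0.888 to 0.905), and the part of either in the keratin values was not tested.

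Most keratins were dim in these cells. Only 8 of the 44 had a mean signal above the median probeset, against 12095 of 19775 genes, and these were KRT18, KRT10, KRT80, KRT8, KRT9, KRT7, KRT75 and KRT37. KRT18 and KRT10 lay at percentiles 98.7 and 97.9 of all probesets, and the other 6 between percentiles 50.6 and 64.1. Of the 44 genes, 15 had no array under 3.5, 23 had some and 6 had all 6 arrays under it. The 6 were KRT13, KRT19, KRT33A, KRT36, KRT76 and KRT83. In fold terms the dim keratins carried little information, since their SE reached 1.12 on the log2 scale, whereas that of KRT10 and KRT18 was 0.08.

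**Figure D1:**
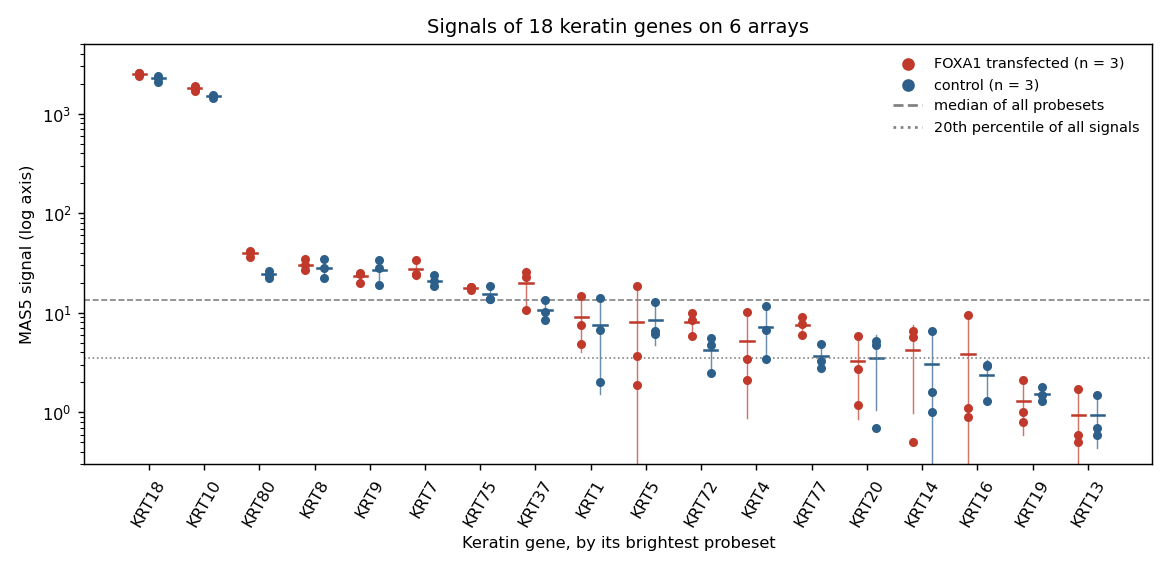
MAS5 signal on a log axis for the 18 keratin genes described one by one, in 3 FOXA1 transfected and 3 control arrays, with points for arrays, short lines for group means and vertical bars for SD, cut at the axis where they run below it. KRT18 and KRT10 stand near or above 1443 in every array and all others under 42, while the groups do not overlap in KRT10, KRT80, KRT7, KRT72 and KRT77.

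No keratin passed the comparison over all probesets. Limma with Benjamini-Hochberg adjustment called 0 of 44 at an adjusted p under 0.05, and 2, KRT10 and KRT80, had an unadjusted p under 0.05, where 14.6% of all genes did. SAM (significance analysis of microarrays), the method the study names, called no keratin either, and only 4 of all probesets. Over all genes limma called 0.091%, of which 0.0607% were higher and 0.0303% lower in FOXA1 transfected cells. The lowest adjusted p of a keratin was 0.232. The lowest FOXA1 transfected array was above the highest control array in 6 keratins, KRT7, KRT10, KRT72, KRT73, KRT77 and KRT80, and none had the reverse. These are 6 of 44 (13.6%) where 12.5% of all genes were higher without overlap, and 0 of 44 where 7.25% were lower (19.7% in either direction). After quantile normalization 2 were higher, KRT10 and KRT80, and 2 lower, KRT33B and KRT76, where 10.6% and 8.91% of all genes were. After median centring 2 were higher, KRT3 and KRT80, and the same 2 lower, where 4.86% and 8.87% of all genes were. Of the 8 brighter keratins 3 were higher without overlap, where 14.6% of genes above the median probeset were higher, 10.4% lower and 25.1% either. In bulk RNA of this kind, fewer cells that express a keratin and less RNA per cell cannot be told apart.

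KRT80, a type II keratin of differentiating epithelia that lies near desmosomes, had the widest ratio among the brighter keratins without overlap. Its signals were 36.6, 41.6 and 41.1 in the FOXA1 transfected arrays and 22.6, 23.7 and 26.5 in the control arrays. All 3 FOXA1 transfected arrays stood clear of the highest control array. The group means were 39.8 ± 2.75 (SD, n = 3) and 24.3 ± 2.01 (SD, n = 3), a ratio of 1.64. The log2 difference was 0.71 (SE 0.21, adjusted p = 0.245 from limma; exact permutation test, two-sided, p = 0.1, which is the smallest possible with 3 arrays in each group). Its groups stayed apart under every alternative that recomputed them, with a log2 difference of 0.53 after median centring of the arrays and 0.66 to 0.78 when 1 array was left out, and it did not pass under any of them.

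KRT10, the type I partner of KRT1 in cornifying epidermis, was read by 3 bright probesets. At the brightest the signals were 1675, 1779 and 1914 in the FOXA1 transfected arrays and 1524, 1496 and 1443 in the control arrays. The groups did not overlap, and the lowest FOXA1 transfected array was FOXA1 array 1. The ratio was 1.20 and the log2 difference 0.26 (SE 0.08, adjusted p = 0.232 from limma). At the other 2 probesets, both of the _x_at kind that can also bind similar transcripts, the log2 differences were 0.13 (SE 0.10) and 0.09 (SE 0.12), and the groups overlapped. Read by the median of its 3 probesets the difference was 0.13, and with each array centred on its median it was 0.08 with overlap. KRT1, its type II partner, had signals of 14.6, 4.9 and 7.6 against 6.7, 2.0 and 14, with overlap.

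The simple epithelial keratins did not separate the groups as a class. KRT18, the type I chain of simple epithelia, had signals of 2359, 2530 and 2544 in the FOXA1 transfected arrays and 2296, 2080 and 2405 in the control arrays. Control array 3 lay above FOXA1 array 1, so the groups overlapped. The log2 difference was 0.13 (SE 0.08, adjusted p = 0.566 from limma), and it was -0.05 with each array centred on its median. KRT8, its type II partner, had signals of 30, 26.7 and 34.3 against 22.2, 28.5 and 34.5, with overlap and a log2 difference of 0.11 (SE 0.25). KRT18 and KRT8 are each read by 1 probeset, of the _x_at kind, and that of KRT8 lay at percentile 63.1. With _x_at probesets left out 41 keratins remained, and neither KRT18 nor KRT8 nor their pair could be read.

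KRT7, a type II keratin of ducts and urothelium, had signals of 33.8, 24.0 and 24.5 in the FOXA1 transfected arrays and 20.9, 23.8 and 18.4 in the control arrays at its brightest probeset. The groups were separated by 0.2 signal units, between FOXA1 array 2 and control array 2, and the log2 difference was 0.37 (SE 0.27, adjusted p = 0.650 from limma). A second KRT7 probeset above the median had a log2 difference of -0.17 (SE 0.46) with overlap, so the direction differed between probesets, and read by the median of its probesets the groups overlapped. They also overlapped after quantile normalization and after median centring. KRT20, the umbrella cell keratin, had signals of 1.2, 5.9 and 2.7 against 0.7, 4.7 and 5.2. Both groups spanned 3.5 and no difference in KRT20 was detectable. KRT19 lay at 0.8 to 2.1 in FOXA1 transfected and 1.3 to 1.8 in control arrays at the brighter of its 2 probesets, and at 0.3 to 1.2 at the other. KRT23, a type I keratin of glandular epithelia, had a log2 difference of 0.11 (SE 0.97). Of the 6 simple epithelial keratins 5 lay above 0 and 1 below, with a median log2 difference of 0.11.

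Keratins of basal and activated epithelia were at the dim end in both groups. KRT5 had signals of 18.6, 1.9 and 3.7 in the FOXA1 transfected arrays and 6.6, 6.1 and 12.9 in the control arrays. One FOXA1 transfected array was the highest of all 6 and the other 2 were the lowest. The log2 difference was -0.66 (SE 0.83), and 0.05 without FOXA1 array 2. KRT14, its type I partner, had signals of 0.5, 6.5 and 5.7 against 1.0, 1.6 and 6.5 (log2 difference 0.28, SE 1.12), with FOXA1 array 1 the lowest of the 6. KRT16, which is induced in wounded epidermis, had 9.5, 0.9 and 1.1 against 1.3, 3.0 and 2.9. Of the 4 keratins classed as basal or activated, KRT5, KRT14, KRT15 and KRT16, 3 lay below 0 and 1 above, with a median of -0.38. KRT15 was at -1.14 (SE 0.92), with 5 arrays under 3.5. All 4 were at or under the median probeset, where 63.7% of all genes lay above 0. The groups overlapped in all 4, where 11.3% of all genes in that range were without overlap. KRT13 and KRT4, the pair of mucosal epithelia, had log2 differences of -0.10 (SE 0.78) and -0.62 (SE 0.78), with KRT13 at or under 1.7 in every array.

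Among keratins of cornified, hair and root sheath epithelia, KRT77, a keratin of sweat gland ducts, had signals of 6.0, 7.7 and 9.1 in the FOXA1 transfected arrays and 3.3, 4.9 and 2.8 in the control arrays. The log2 difference was 1.07 (SE 0.62, adjusted p = 0.556 from limma), and 0.94 with signals under 3.5 set to 3.5. KRT72, of the inner root sheath of hair, had 10.0, 5.8 and 8.5 against 4.7, 5.6 and 2.5, a log2 difference of 0.97 (SE 0.63). Both had groups without overlap, both were dimmer than the median probeset, and in both the groups overlapped after quantile normalization or median centring. KRT73, also of the inner root sheath and named after its values were seen, had 2.4, 4.0 and 3.0 against 1.4, 1.3 and 2.3. Most of these are under 3.5, at the dim end of the array, and the log2 difference was 0.93 (SE 0.73). KRT9, of the palm and sole, was the 1 brighter keratin with a difference below 0, at -0.19 (SE 0.29), with signals of 24.7, 19.9 and 25.3 against 19.2, 28.2 and 33.9. KRT75, of the companion layer of the hair follicle, had 17, 18.2 and 18.3 against 13.7, 13.7 and 18.5, with control array 3 above all others.

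KRT37, a type I hair keratin, had signals of 25.7, 10.6 and 23.1 in the FOXA1 transfected arrays and 13.5, 8.4 and 10.1 in the control arrays. FOXA1 array 2 lay inside the control range and the other 2 lay well above it. The log2 difference was 0.82 (SE 0.44, adjusted p = 0.524 from limma). Of 12 hair and nail keratins 11 lay above 0 and 1, KRT33B, below, with a median of 0.40, and none was without overlap. Of 7 root sheath keratins 5 lay above 0, with a median of 0.83, and differences ran from -1.33 for KRT71 to 0.97 for KRT74. Of the 12 hair keratins 11 and of the 7 root sheath keratins 6 were at or under the median probeset. In that range 63.7% of all genes lay above 0, with a median of 0.27, and 11.3% were without overlap in either direction.

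Start regions were read for 29 of the 44 keratins from RefSeq windows on GRCh38.p14 that run from 250 bases before to 50 bases after a gene's start, with the first listed window taken where a gene has several. Searched on both strands were TGTTTAC, then TGTTGAC, and also the word TATTTAC and the word TATTGAC, which spell the consensus bound by FOXA proteins. These words were found in 2 of 29 keratin windows (6.9%) and in 9.52% of 27305 windows of all genes. The 2 were those of the neighbouring hair keratins KRT37 and KRT38, at the same distance of 167 bases before the start. The word TATAAA on the gene's strand, 40 to 20 bases before the start, where a TATA box lies, was found in 13 of 29 keratin windows (44.8%) and in 2.55% of all windows. Windows were read for 5 of the 8 brighter keratins, of which KRT10 and KRT37 were among the 13, and KRT7, KRT18 and KRT80 were not searched. The 30 bases around the TATA word are shown for KRT10, as a brighter keratin that has it. For KRT37 and KRT38, which have a TATA word too, those around the FOXA word are shown. They run 5′ to 3′ on the minus strand, the strand of these genes, with the matched letters in capitals. The FOXA word lies on the opposite strand and so appears as GTCAACA.
KRT10 (chr17:40822626-40822655): accctctcagtaTATAAAggcttgtcactg
KRT37 (chr17:41424734-41424763): atctcagatttGTCAACAttgctttaatga
KRT38 (chr17:41441132-41441161): gcctcagattcGTCAACAttcctttaacga
KRT38, next to KRT37 and with a like sequence here, had a log2 difference of 0.25 (SE 0.42) with overlap. A match of letters is a description of sequence and does not show binding.

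**Figure D2:**
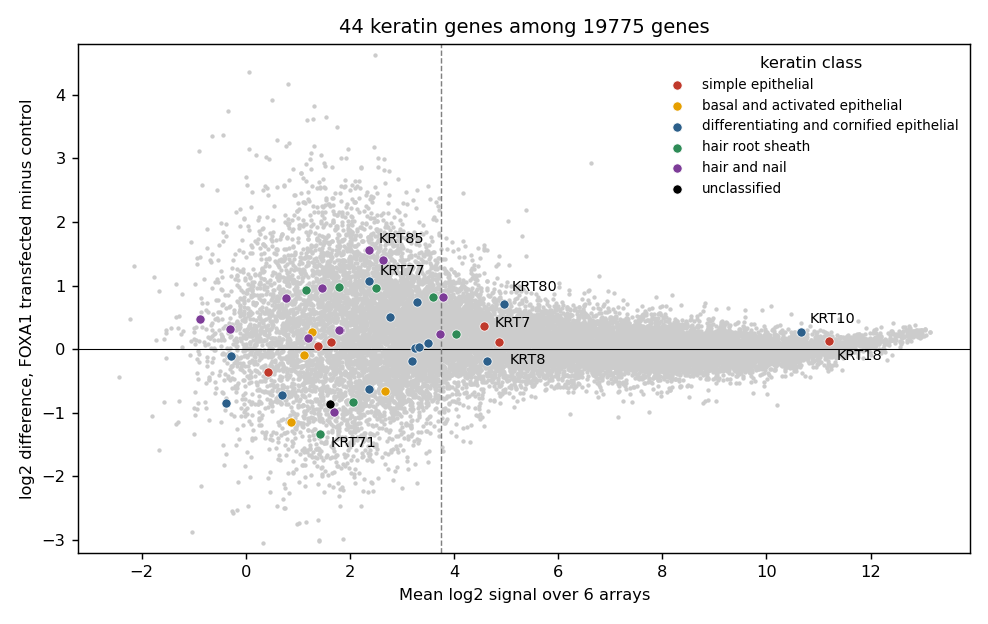
Log2 difference (FOXA1 transfected minus control, as labelled) against mean log2 signal over 6 arrays for 19775 genes in grey and 44 keratins in colour by class, with a dashed line at the median probeset. The 36 dim keratins left of the line spread from -1.33 to 1.57 within the cloud of other genes, and the 8 brighter ones lie between -0.19 and 0.82.

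Across the family, 30 of 44 keratins (68.2%) were above 0 in log2 difference and 14 were below. The median was 0.20, where 59.2% of all genes lay above 0 with a median of 0.07. Quantile normalization left 24 and median centring 22 of the 44 above 0, with medians of 0.04 and 0.02. Median centring moved the median over all genes from 0.07 to -0.11. The 8 brighter keratins had 7 above 0 and a median of 0.25, and this median was 0.19 after quantile normalization and 0.07 after median centring. Type II keratins had 16 of 20 above 0 (median 0.30) and type I keratins 14 of 24 (median 0.12). Of the 6 keratins without overlap, 5 were type II (25% of 20) and 1 type I (4.17% of 24), where 12.5% of all genes were higher without overlap. Of the 5, only KRT80 stayed without overlap after quantile normalization or after median centring. No test of a difference between types was made.

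Single arrays moved many keratins together. The median keratin deviated from its own mean over 6 arrays by 0.14, -0.20 and 0.29 log2 units in FOXA1 arrays 1, 2 and 3, and by -0.26, -0.10 and 0.18 in control arrays 1, 2 and 3. The median signal of all probesets was 17.5, 14.4 and 16.3 in the FOXA1 transfected arrays and 14.2, 12.3 and 16.1 in the control arrays, so that control array 3 was high and FOXA1 array 2 low within its group by both measures. In 23 of 36 dim keratins (63.9%) FOXA1 array 2 was the lowest of its group, where 41.7% of all dim genes had it lowest. Groups of 2 against 3 arrays separate more often in all genes as well. Without FOXA1 array 2, 15 of 44 keratins (34.1%) were higher without overlap, where 20.1% of all genes were. Without control array 3 the shares were 25% of keratins (11 of 44) and 23.4% of all genes. Without FOXA1 array 1, 7 keratins (15.9%) were lower without overlap, where 11.5% of all genes were, and 5 of the 7, KRT15, KRT16, KRT19, KRT33B and KRT76, had a mean signal under 3.5.

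**Figure D3:**
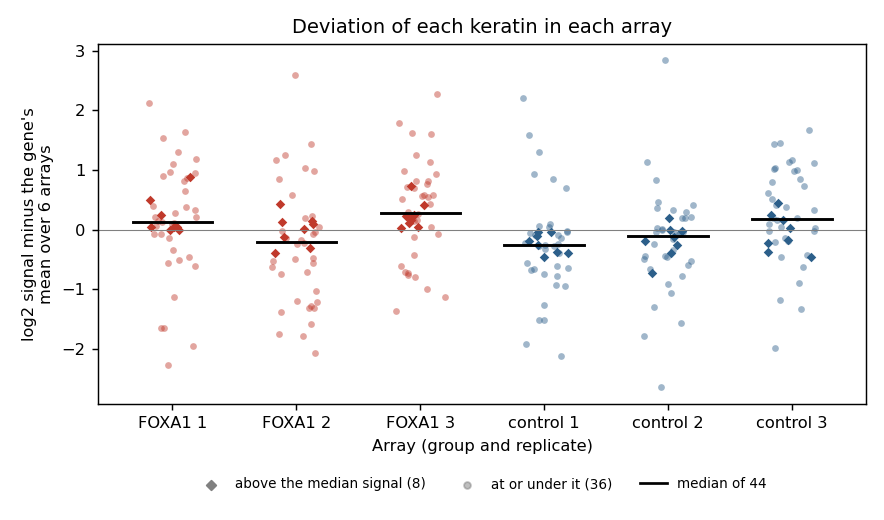
Log2 signal of each of 44 keratins in each array minus that gene's mean over the 6 arrays, with diamonds for the 8 brighter keratins, circles for the 36 dim ones and a black line for the median of 44. The medians run from -0.26 in control array 1 to 0.29 in FOXA1 array 3, and arrays of both groups lie on either side of 0.

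Several probesets read the same gene for 9 of the 44 keratins, 21 probesets in all. In 7 of the 9 genes all probesets had the same sign of difference, and KRT7 and KRT19 had both signs. KRT10 was the 1 gene with all of its probesets well above the median. KRT74 had log2 differences of 0.97 (SE 1.12) and 1.998 (SE 0.87) at its 2 probesets, the second without overlap, with signals of 12.1, 3.1 and 2.6 against 1.5, 0.6 and 1.7. Most of these lie under 3.5, at the dim end of the array, and whether signals that low carry an order was not tested.

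**Figure D4:**
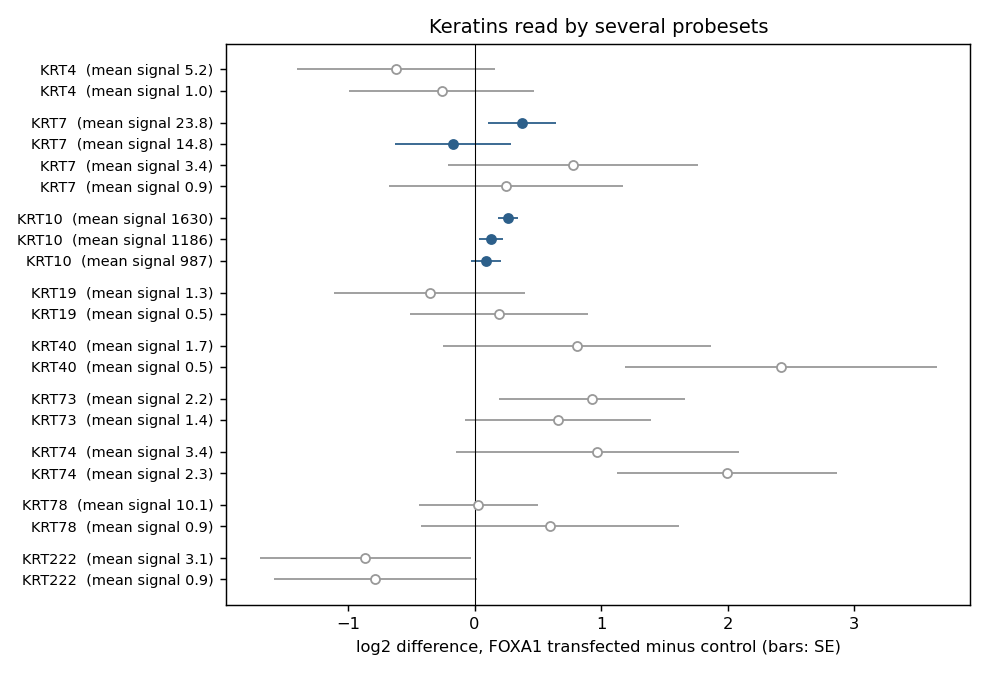
Log2 difference (FOXA1 transfected minus control) with SE for the 21 probesets of 9 keratins read by more than 1, filled where the mean signal is above the median probeset and open where it is not, with the mean signal beside each gene. The 3 KRT10 probesets lie between 0.09 and 0.26, and the 2 filled KRT7 probesets lie on either side of 0.

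Partner chains were set side by side through the log2 signal of the type II chain minus that of the type I chain in each array, for 5 pairs. KRT8 minus KRT18 differed by -0.02 between the groups (exact two-sided permutation test, p = 0.9), with an SD of 0.18 between the FOXA1 transfected arrays and 0.31 between the control arrays (n = 3 each). For KRT7 minus KRT19 the difference of 0.73 (exact permutation p = 0.1, adjusted p = 0.5 over 5 pairs) rests on KRT19 signals that were under 3.5 in all arrays. With signals under 3.5 set to 3.5 it was 0.37, which is the difference of KRT7 alone. For KRT1 minus KRT10, KRT5 minus KRT14 and KRT4 minus KRT13 the differences were 0.25, -0.94 and -0.52, with SDs of 0.85 to 3.75 between FOXA1 transfected arrays and 0.87 to 1.58 between control arrays, and exact permutation p values from 0.7 to 1. With these SDs, a difference of the size seen could not be told from the spread between arrays.

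Genes that work with keratins gave no call over all probesets either. Past limma were 0 of 15 other intermediate filament genes and 0 of 20 keratin linkers and partners. The same held for 0 of 13 cornified envelope genes and 0 of 19 regulators of keratin genes. In this order 2, 5, 2 and 5 had an unadjusted p under 0.05 from limma, where 14.6% of all genes did. Above the median probeset lay 14 of the linkers and 12 of the regulators, and in that range 2386 of 12095 genes did. VIM, the filament protein of mesenchymal cells, had signals of 4460, 4250 and 3494 in the FOXA1 transfected arrays and 4017, 3923 and 3567 in the control arrays, with overlap (log2 difference 0.08). SYNM, which links filaments to the membrane skeleton, had 53.3, 53.0 and 56.2 against 66.5, 72.4 and 79.3, all lower, with a log2 difference of -0.42 (adjusted p = 0.302 from limma). BFSP1, a filament protein of the lens, and LMNB1, a nuclear lamin, were also lower without overlap, at -0.51 and -0.15. In this list 3 of 15 genes were lower and 0 higher without overlap, 20% in either direction, where 19.7% of all genes were.

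Of the linkers and partners, DNAJB6, a chaperone that binds KRT18, had signals of 1052, 1189 and 1152 against 908, 821 and 892, with a log2 difference of 0.37 (adjusted p = 0.130 from limma) and no overlap. HSPB1, a small heat shock protein that associates with keratins, differed by 0.23, also without overlap. JUP (plakoglobin), which ties keratins into desmosomes and was named after its values were seen, differed by 0.26 without overlap. DST (dystonin), a plakin that ties keratins to hemidesmosomes and likewise named after its values were seen, was lower without overlap, at -0.15. DSP (desmoplakin), which anchors keratins at desmosomes, had 257, 241 and 229 against 302, 325 and 251, a log2 difference of -0.27 with overlap. PPL (periplakin) differed by -0.59 with overlap. Of the regulators, RARG, a retinoic acid receptor, had 32.3, 22.9 and 24.7 against 13.3, 3.4 and 10.6, with a log2 difference of 1.75 (adjusted p = 0.237 from limma) and no overlap. GRHL1, a grainyhead factor of epithelia, differed by 0.37 and TFAP2A, an activator of epidermal keratin genes, by -0.30, both without overlap. FOXN1, a forkhead factor of hair follicle and epidermis, differed by 1.95 and had 14.3, 10.7 and 13.6 against 5.6, 6.4 and 1.0. EHF was the other regulator lower without overlap, at -0.49. Without overlap were 20% of the linkers (3 higher, 1 lower) and 26.3% of the regulators (3 higher, 2 lower). Over all genes the share was 19.7%, and 25.1% of those above the median probeset. The median log2 differences of the linkers and regulators were 0.03 and 0.04, and 0.07 over all genes. In the cornified envelope list, 12 of 13 genes were at or under the median probeset. RPTN (repetin) differed by -2.49 (SE 0.80) and CSTA (cystatin A) by 1.97 (SE 0.80). TGM3 differed by 1.06 (SE 0.73) and TGM5 by 0.71 (SE 0.66), both being transglutaminases that join envelope proteins. The groups overlapped in CSTA, TGM3 and TGM5. They did not in RPTN, which had all FOXA1 transfected arrays under 3.5. RPTN was the only 1 of the 13 without overlap (7.69%), where 11.3% of all genes at or under the median probeset were.

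The labelled cell type was set against markers outside the keratins. Of 10 urothelial and epithelial markers, 2 were above the median probeset and 4 had a mean signal under 3.5. CDH1 (E-cadherin), a defining epithelial marker, had signals of 5.3, 1.0 and 2.9 in FOXA1 transfected and 0.6, 2.0 and 1.4 in control arrays, and EPCAM 1.9, 5.8 and 6.8 against 8.0, 5.5 and 7.5. UPK1B, a uroplakin of umbrella cells, had 30.4, 20.1 and 25.5 against 18.3, 16.7 and 9.6, without overlap. It was the only 1 of the 10 (10%), where 19.7% of all genes were without overlap in either direction. The summed signal of the 10 was 94.9 to 128.6 in FOXA1 transfected and 87.6 to 103.1 in control arrays. Of 5 mesenchymal markers, 4 were above the median. The summed signals of the 5, mostly that of VIM, were 4295 to 5354 in FOXA1 transfected and 4506 to 5083 in control arrays. CDH2 (N-cadherin) and FN1 were lower without overlap, at -0.45 and -0.88 (adjusted p = 0.118 and 0.514 from limma). ZEB1 was at -0.13, VIM at 0.08 and SPARC at 0.67, each with overlap. The share without overlap was 2 of 5 (40%), where 19.7% of all genes were, and 25.1% of those above the median probeset. Summed signals of markers of other cell types overlapped between the groups. For leukocytes (4 genes) they were 40.4 to 58.3 against 33.6 to 46.1, and for endothelium (4 genes) 53.7 to 67.5 against 42.1 to 58.7. For fibroblasts (6 genes) they were 115.5 to 197.6 against 124.4 to 173.6. For muscle (4 genes) they were 22.3 to 32.5 against 25.9 to 43.8, and for nerve (4 genes) 17.7 to 52.8 against 27.1 to 35.6. Of single genes, PECAM1 was higher without overlap, at 0.47 (SE 0.20), as 1 of 4 endothelial markers (25%). PDGFRA was lower without overlap, at -0.79 (SE 0.50), as 1 of 6 fibroblast markers (16.7%). The leukocyte, muscle and nerve markers all overlapped, where 19.7% of all genes were without overlap.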

How the data were processed

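The data are 6 HG-U133 Plus arrays, grouped and numbered by their labels. The authors deposited 1 MAS5 signal intensity per probeset and array, on a linear scale. Their methods name RMA log2 conversion and SAM, which these values do not include. All columns were mapped to samples. Array controls (62 probesets) were left out. Values of 0 (25) were set to 0.1 and log2 taken. The fit was two-sided, by limma 3.58.1 (R 4.3.3) with the trend option of eBayes, and p-values were adjusted by Benjamini-Hochberg over 54613 probesets (threshold 0.05). Symbols came from the platform annotation, with 41091 probesets of 1 symbol, and all 44 keratins matched a RefSeq gene by Entrez number. Start regions came from RefSeq on GRCh38.p14.

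Members, lists and tests were chosen with earlier results of these data known. Named were keratins above the median probeset, those without overlap above the 20th percentile, partner pairs and urothelial keratins, and up to 4 genes of each companion list by p, plus VIM. FOXA1 and the lists of cell type markers were also set by name. Which markers are given singly was chosen after their values were seen. Any other keratin or gene in the text was likewise named after its values were seen. Detection calls were not used. The number of arrays limits the precision. Alternatives were SAM (20 splits), limma without the trend, quantile normalization, median centring, a floor of 3.5, dim or _x_at probesets left out, the median over a gene's probesets, leaving out each array, and a block for the replicate number.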

Additional observations from a re-analysis of the deposited data

How the results depend on the processing

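No keratin passed the threshold under any of the 15 alternatives, SAM and the 6 fits without 1 array included. Little passed at all, from 1 call in all with limma without the trend to 179 with dim probesets left out, and 4 with SAM. With so few calls, a count of 0 among the keratins says little about them. The number higher without overlap was 2 after quantile normalization (with 2 lower), 2 after median centring (with 2 lower) and 3 with dim probesets left out, where 8 keratins remain to be counted. Without 1 array it ran from 6 to 15 higher and from 0 to 7 lower, while the share of all genes ran from 15.9% to 23.4% higher and from 10.3% to 12.1% lower. The median over keratins, 0.20, ran from 0.09 to 0.39 without 1 array. With each array centred on its median KRT8 was at -0.072, KRT18 at -0.048 and KRT20 at -0.129. KRT20 was at -0.138 after quantile normalization and at -0.081 with signals under 3.5 set to 3.5, where KRT16 was at 0.48 and KRT1 minus KRT10 at -0.022. Signs also turned without 1 array, with ranges of -0.055 to 0.26 for KRT8, -0.65 to 0.30 for KRT13, -0.37 to 1.48 for KRT14, -1.17 to 0.53 for KRT16, -0.89 to 0.63 for KRT20, -1.60 to 0.046 for KRT5 and -0.25 to 1.16 for KRT1, and for the pairs of -0.20 to 0.083 (KRT8 minus KRT18), -3.08 to 0.42 (KRT5 minus KRT14), -0.52 to 0.91 (KRT1 minus KRT10) and -1.50 to 0.52 (KRT4 minus KRT13). The cause was not tested. Of 204 recomputed differences of the 18 named keratins, 181 kept their sign, 21 turned it and 2 (KRT13 and KRT19 with the floor of 3.5) were at 0.

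With the replicate number as a block, 0 keratins passed, of 85 probesets called in all against 32 without it. Same-numbered arrays deviated together with correlations of 0.002, 0.038 and 0.011, so the numbers were not taken to pair the arrays.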

Other observations

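Probesets that carry a keratin name outside the rule were read as well. KRT10-AS1, the transcript antisense to KRT10, had signals of 207, 282 and 253 in FOXA1 transfected and 215, 222 and 233 in control arrays, with overlap and a log2 difference of 0.14 (SE 0.12). The 2 probesets of KRT8P12, a pseudogene of KRT8, had log2 differences of 0.04 (SE 0.36) and 0.09 (SE 0.34), and that of KRT17P5, a pseudogene of KRT17, 0.25 (SE 0.37). KRT19P2 had 0.36 (SE 0.96) at the probeset with its name alone. The probeset shared by KRT34 and another symbol lay between 0.3 and 1.9 in all arrays.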
